A study of Mus musculus with 36 samples.

Results

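The liver was compared between mice given immune checkpoint blockade and mice given control IgG, in 6 bulk RNA sequencing libraries out of a set of 36 that also covers tumor, kidney, lung, heart and skeletal muscle. All animals were C57BL/6 wild-type mice of matched age and sex that carried MC38, a transplanted tumor grown from a mouse colon carcinoma line, so no liver of a tumor-free mouse is among them. The ICB group (3 liver libraries) had received a high dose of anti-PD1 and anti-CTLA4 antibodies, and the control group (3 liver libraries) had received IgG. The sources used here give no dose, day of treatment, age or sex. Libraries were chosen by their tissue and treatment labels, and a gene was included when its FPKM, the fragments per kilobase of gene scaled to the sequencing depth, reached 1 or more in 3 or more of the 6. This held for 11257 of the 18760 genes with a symbol of their own. Among the members of the gene lists used here, Col6a2 was just inside that limit with a third-highest FPKM of 1.03, and Mmp9 just outside it with 0.994. The liver libraries held between 19012992 and 22295325 reads. Whether each library stands for its own animal is not stated, so that the replicate error behind the p-values could be technical in part.

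PD-1 and CTLA-4 are receptors that restrain T cells, and antibodies that block them release T cell responses against tumors and, at times, against healthy organs including the liver. The liver consists mostly of hepatocytes, whose metabolic work is divided along the lobule: periportal cells favour urea synthesis, gluconeogenesis and fatty acid oxidation, and pericentral cells favour glutamine synthesis and the metabolism of foreign compounds. Kupffer cells are the resident macrophages of the liver sinusoids and clear particles and aged red cells from the blood, while monocytes from the circulation can enter the organ and become macrophages there. PPAR-alpha is the nuclear receptor that drives the genes of fatty acid breakdown in hepatocytes, and the unfolded protein response sets the level of chaperones in the endoplasmic reticulum, the compartment through which the secreted plasma proteins pass.

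The tissue label held in all 6 libraries. Albumin ranged from 34886 to 58776 FPKM in liver and reached at most 62.1 in any other tissue, and the Kupffer cell lectin Clec4f ranged from 64.9 to 268 against at most 0.66. Markers of adjoining tissues were at or near zero: the adipocyte genes Adipoq and Plin1 were at 0 in all 6 libraries, and the muscle genes Acta1 and Ckm stayed at or below 0.145. Defining markers of lymphocytes were also very low in both groups, with Cd3e at 0.0599 to 0.199 FPKM, the NK cell receptor gene Ncr1 at 0.0529 to 0.389 and the B cell gene Ms4a1 at 0.0133 to 0.311.

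Library ICB replicate 2 stood closer to the IgG libraries than to its own group, and IgG replicate 1 stood apart from all others. On log2(FPKM + 1) values, ICB replicate 2 correlated at r = 0.9859 with IgG replicate 3, the highest of the 15 pairs, and at 0.9487 and 0.9598 with the other two ICB libraries. The first principal component, with 43.7% of the variance, placed ICB replicates 1 and 3 at 35.3 and 21, IgG replicates 1 and 2 at 0 and -2, and IgG replicate 3 and ICB replicate 2 at -26.5 and -27.9. The second, with 27.3%, placed IgG replicate 1 at 38.4 and the others between -15.6 and 1.1. The genes and lists that the results turn on are therefore given by library, and several also without ICB replicate 2. That library stood out by its measured profile, so counts without it describe the remaining 5 libraries.

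**Figure D1:**
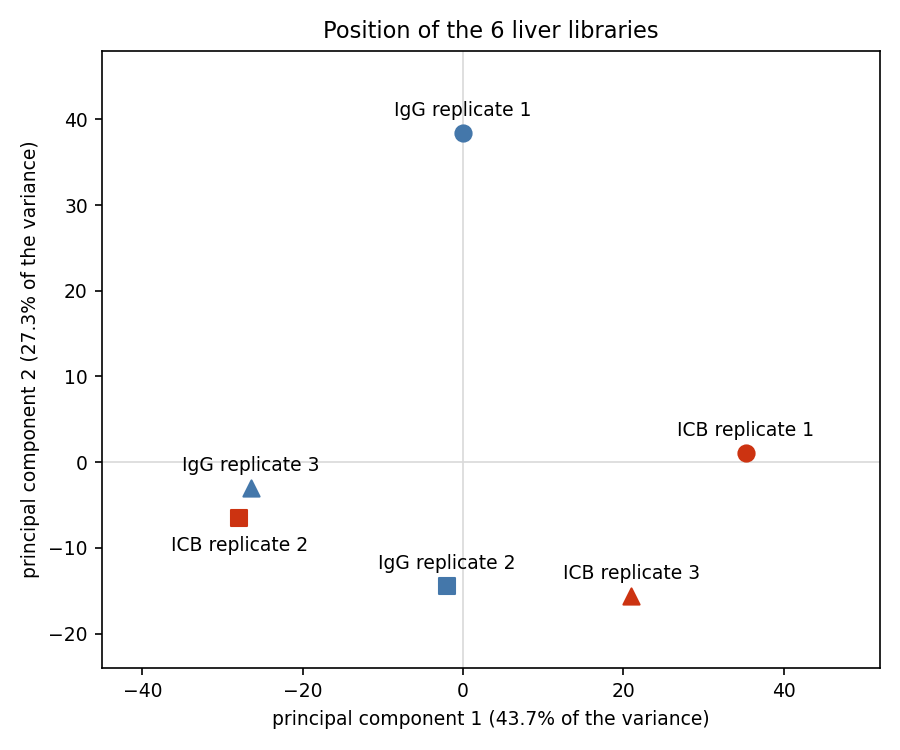
Scores of the 6 liver libraries on the first 2 principal components of log2(FPKM + 1) over the 11257 genes tested, with IgG in blue and ICB in red. ICB replicate 2 (-27.9) lies beside IgG replicate 3 (-26.5) on the first component, and IgG replicate 1 (38.4) lies apart on the second.

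No gene passed the test between the 3 ICB and the 3 IgG libraries. With limma on log2(FPKM + 1), 0 of 11257 genes (0%) had a Benjamini-Hochberg adjusted p under 0.05, the smallest adjusted p was 0.999, and 379 genes had an unadjusted p under 0.05. That is fewer than the 563 that the unadjusted threshold alone would give. The median difference over all genes was -0.02 on the log2 scale. Of the 11257 genes, ICB replicates 1, 2 and 3 were above all IgG libraries in 3292, 2572 and 2483. They were below all IgG libraries in 3696, 2518 and 3286. Counts of this kind for the lists below are to be read beside these. In 367 genes (3.26%) every ICB library was above every IgG library, and in 403 (3.58%) every ICB library was below every IgG library. These are called separate in what follows. Separation also arises by random order among so few libraries, so the word describes the values and is no test. When each library was left out in turn, 42 genes passed without ICB replicate 2, 40 of them higher (0.355%) and 2 lower (0.0178%), 1 passed without IgG replicate 1, and 0 passed in the other 4 fits. All differences below are ICB minus IgG on the log2(FPKM + 1) scale with their standard error, and none passed in the fit of all 6 libraries unless a sentence says otherwise.

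The genes with the smallest p on the higher side included an immunoglobulin gene, a lipase and a cytokine. Ighg1, the constant region of an immunoglobulin heavy chain (chr12:113325240-113330523, minus strand), had 0.513, 0.404 and 0.159 FPKM in IgG replicates 1 to 3 and 4.34, 2.11 and 5.31 in ICB replicates 1 to 3, a difference of 1.80 ± 0.28 (SE). These values rest on 5 to 14 reads in the IgG libraries and 67 to 186 in the ICB libraries. The groups did not overlap, and ICB replicate 2 was the lowest of its group. With every IgG value under 1, the gene could be included only if all 3 ICB values reached 1. Its separation was therefore fixed by the filter, as was that of Slc26a10 and Igkv6-15 below. Lpl, lipoprotein lipase, which releases fatty acids from circulating triglycerides (chr8:68880491-68907448, plus strand), was at 2.71, 5.12 and 3.88 under IgG and at 11.2, 11.1 and 18.7 under ICB, a difference of 1.57 ± 0.26. Here ICB replicate 2 was level with ICB replicate 1, and the lowest ICB library was above the highest IgG library. Il1b, the inflammatory cytokine interleukin-1 beta, was at 0.548, 1.1 and 0.691 against 3.14, 2.65 and 2.6 (1.10 ± 0.18), on 11 to 67 reads per library. Tk1, the thymidine kinase of the salvage pathway, was at 4.48 to 5.52 against 7.79 to 9.28 (0.66 ± 0.16). In Il1b and Tk1, too, all ICB libraries including replicate 2 were above all IgG libraries. Further genes at the top of the ranking were Slc26a10, of the anion transporter family, at 0.257, 0.507 and 0.372 against 5.04, 1.73 and 2.24 (1.45 ± 0.29), the immunoglobulin variable gene Igkv6-15 at 0.547, 0 and 0.237 against 2.87, 1.64 and 1.28 (1.20 ± 0.26), and the signalling adaptor Dok2 at 1.28, 2.22 and 1.68 against 6.97, 3.26 and 5.69 (1.18 ± 0.26). On the lower side they were Hapln4, a matrix link protein, with -0.77 ± 0.20, the actin-associated Palld with -0.63 ± 0.17, the membrane trafficking gene Mal2 with -0.72 ± 0.20, Xkr9 with -0.60 ± 0.18 and the acyltransferase gene Acnat1 with -0.84 ± 0.26.

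Kupffer cell genes were higher in ICB replicates 1 and 3 than in the other 4 libraries. All 27 listed genes were tested and all 27 had a positive difference, with a median of 0.90 against -0.02 over all genes, and 5 of the 27 were separate. The mean log2(FPKM + 1) of the list was 4.18, 4.51 and 4.33 in IgG replicates 1 to 3 and 5.57, 4.40 and 5.79 in ICB replicates 1 to 3. ICB replicate 1 was above all IgG libraries in 25 of the 27 genes and ICB replicate 3 in 27, while ICB replicate 2 was above them in 6 and below them in 4. The summed FPKM of the list was 798 to 1216 under IgG, 2811 and 3452 in ICB replicates 1 and 3, and 1034 in ICB replicate 2. In bulk tissue, more or fewer cells of a type cannot be told apart from more or less RNA per cell.

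The widest difference in the table was that of Marco, a scavenger receptor of macrophages that binds bacteria and particles (chr1:120474538-120505024, minus strand). It was at 29.6, 13.3 and 12.4 FPKM in the IgG libraries and at 337, 13 and 549 in the ICB libraries (2.93 ± 1.23). ICB replicates 1 and 3 were far above every IgG library, and ICB replicate 2 was inside the IgG range. Without ICB replicate 2 the difference was 4.58 ± 0.40 (limma, adjusted p = 0.021). Vsig4, the complement receptor of Kupffer cells (chrX:96247203-96293438, minus strand), was at 32.3, 45.7 and 40.1 against 140, 52.8 and 136 (1.34 ± 0.37). Its groups were separate, with ICB replicate 2 only just above the IgG libraries.

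Adgre1, which encodes the macrophage surface protein F4/80, was at 8.69, 13.3 and 13.1 against 24.6, 17.9 and 36 (1.06 ± 0.28), again separate. The scavenger-type secreted protein gene Cd5l was at 93, 204 and 162 against 460, 201 and 759 (1.50 ± 0.50). Timd4, a receptor for dying cells found on long-resident Kupffer cells, was at 4.98, 10.8 and 9.21 against 27.8, 7.69 and 44.4 (1.33 ± 0.57), and Clec4f itself at 64.9, 148 and 118 against 220, 94.9 and 268 (0.76 ± 0.44). In these genes ICB replicates 1 and 3 were above all IgG libraries, while ICB replicate 2 lay inside the IgG range in Cd5l, Timd4 and Clec4f. The complement genes C1qa, C1qb and C1qc, which macrophages make, followed the same order: C1qa was at 105, 176 and 118 against 372, 119 and 387 (0.99 ± 0.46). The smallest differences of the list were those of Vcam1 (0.15), Cd163 (0.19) and Nr1h3 (0.20).

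Genes for heme and iron handling, a task of Kupffer cells and hepatocytes, differed in which libraries were high. Hmox1, heme oxygenase 1, was at 21.2, 14.8 and 15.8 under IgG and at 60.5, 17.6 and 59.8 under ICB (1.19 ± 0.45). Of the 19 iron genes, 14 were higher and 5 lower, with a median of 0.23 (0.06 to 0.46 with 1 library left out), and 3 were separate and higher: Hamp2, a hepcidin copy (0.336, 1.19 and 2.47 against 7.37, 5.61 and 2.88), the BMP ligand Bmp6 (1.46 to 2.36 against 2.67 to 3.78) and its pathway inhibitor Smad6 (5.24 to 5.93 against 7.19 to 9.90). Hamp2 shares its sequence closely with Hamp, so reads could be divided between both. Hamp, the hepcidin gene that limits iron release, was at 2069, 248 and 558 against 4434, 214 and 1287 (0.70 ± 1.13), with overlapping groups.

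**Figure D2:**
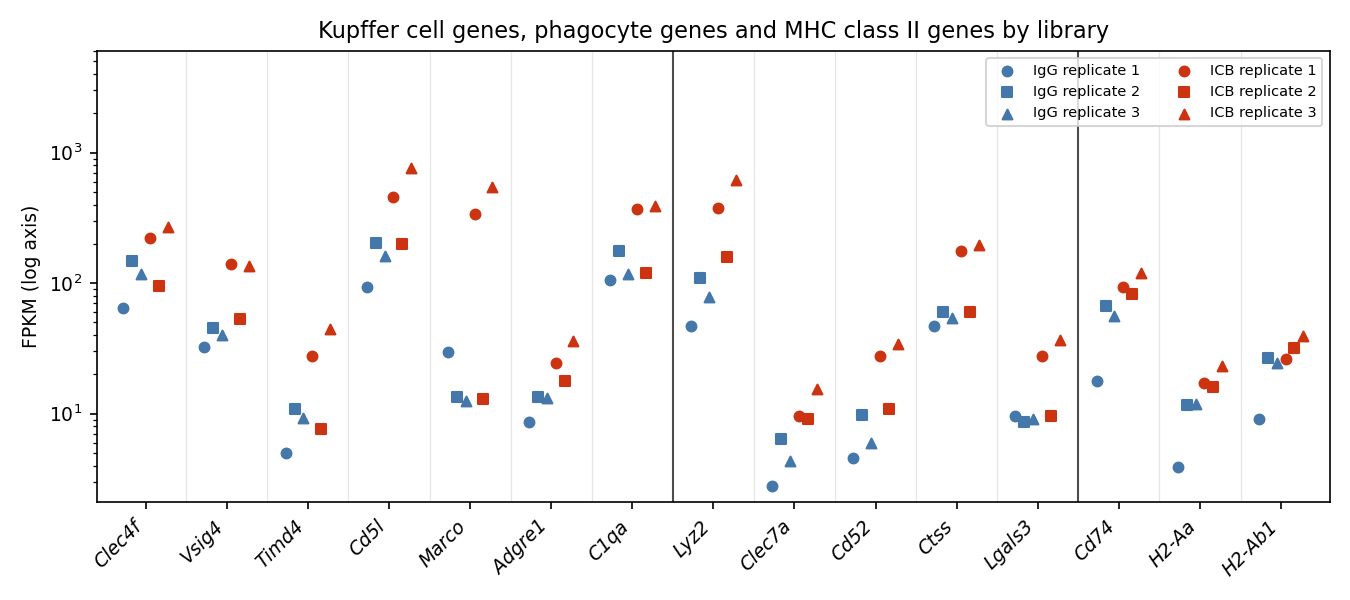
FPKM on a log axis of 7 Kupffer cell genes, 5 phagocyte genes and 3 MHC class II genes, with one symbol per library, IgG in blue and ICB in red. ICB replicates 1 and 3 lie above the IgG libraries in most of these genes, as in Marco (337 and 549 against 12.4 to 29.6), while ICB replicate 2 (squares) lies within or just above them.

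Genes shared by monocytes and macrophages were higher in the same libraries. Of 34 listed genes 24 were tested, 22 were higher and 2 lower, the median difference was 0.95, and 8 were separate and higher. List means were 3.20, 3.73 and 3.35 under IgG and 4.60, 3.47 and 4.92 under ICB. Lyz2, the macrophage lysozyme (chr10:117277331-117282321, minus strand), was at 46.7, 109 and 78.7 FPKM against 375, 159 and 614 (2.16 ± 0.51). It was separate, with ICB replicate 2 closer to IgG replicate 2 than to ICB replicates 1 and 3. Clec7a, the fungal pattern receptor Dectin-1, was at 2.77, 6.39 and 4.34 against 9.56, 9.02 and 15.5 (1.18 ± 0.29). Cd52 was at 4.56, 9.84 and 5.97 against 27.7, 10.8 and 34.2 (1.61 ± 0.43), and Ctss, a protease of antigen processing, at 47.3, 59.9 and 53.8 against 176, 60.1 and 197 (1.24 ± 0.42). Both were separate only narrowly, because ICB replicate 2 exceeded the highest IgG library by little. The 2 genes with a negative difference were Chil3 (-0.19 ± 0.33) and Spp1 (-0.02 ± 0.22).

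The 10 genes of this list that stayed under the limit included Ly6c2 and Ccr2, which define the inflammatory blood monocyte, and Trem2 and Gpnmb, which mark lipid-laden macrophages. Ly6c2 was at 0.624, 1.09 and 0.631 against 0.397, 0.446 and 2.05, and Ccr2 at 0.366 to 0.506 against 0.376 to 0.569. Neither separated the groups. The summed FPKM of the 10 genes was 3.76 to 5.78 under IgG and 5.27, 4.38 and 12.2 under ICB.

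Genes of both macrophage lists were among those that passed when ICB replicate 2 was left out. These were 3 of the 27 Kupffer cell genes and 6 of the 24 tested monocyte and macrophage genes. Over all genes, 40 of 11257 (0.355%) passed as higher. Most of the 42 passing genes belonged to neither list, but the lists do not hold every macrophage gene. Of the 42, 23 were separate in all 6 libraries. In the 40 higher ones, ICB replicate 2 was below ICB replicates 1 and 3 every time, above all IgG libraries in 21, inside their range in 14 and below it in 5. Over all 11257 genes ICB replicate 2 was above all IgG libraries in 2572 and below them in 2518. The 42 genes were picked by the values of the other libraries, so their separation turned on where ICB replicate 2 fell. Its place below ICB replicates 1 and 3 follows in part from the same pick. These counts therefore describe the values and are no separate support. The secreted protein gene Wfdc17 was at 22.1, 31.6 and 27.5 against 115, 49.4 and 139, the integrin beta chain Itgb2 at 5.04, 5.94 and 5.75 against 15.7, 8.70 and 21.7, and the receptor gene Csf2ra at 6.06, 7.69 and 6.42 against 26.4, 8.50 and 25.1. Spi1, the transcription factor PU.1 that directs myeloid development, was at 7.75, 10.8 and 7.67 against 29.2, 8.98 and 28.2. In Wfdc17, Itgb2 and Csf2ra the groups were separate, and in Spi1 they overlapped through ICB replicate 2.

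**Figure D3:**
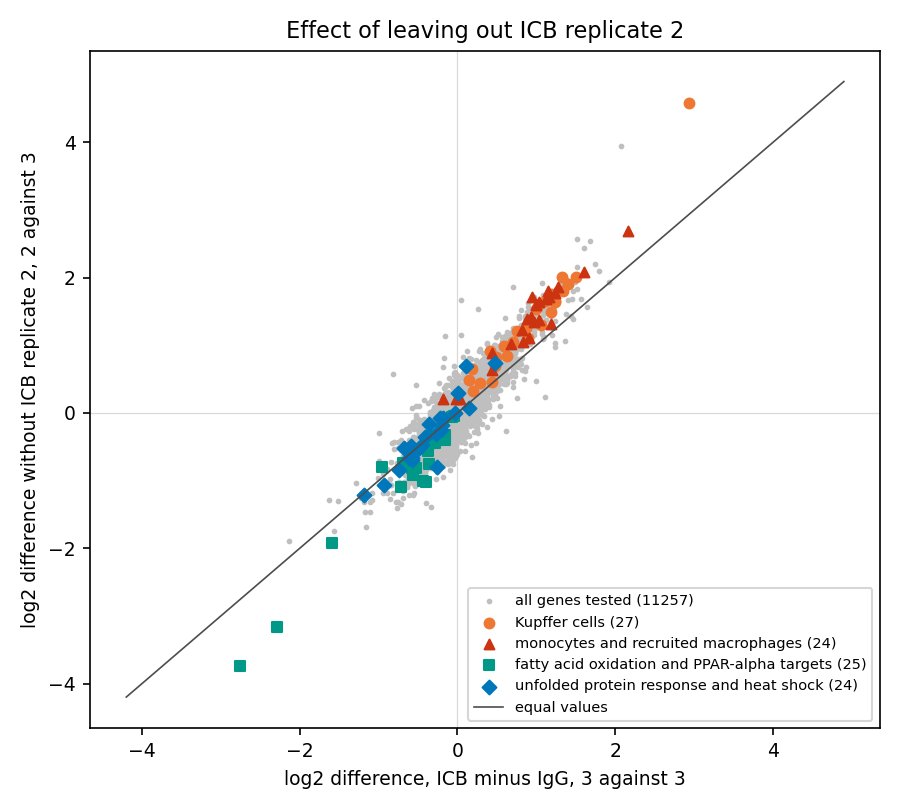
Difference between ICB and IgG per gene on the log2 scale over all 6 libraries (x axis) and without ICB replicate 2 (y axis), with 4 gene lists coloured and a line of equal values. Kupffer cell and macrophage genes lie above the line on the positive side (medians 0.90 and 0.95 against 1.25 and 1.38), and the PPAR-alpha genes below it on the negative side (-0.39 against -0.56).

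Genes of MHC class II, with which antigen-presenting cells show peptides to helper T cells, were higher in all 3 ICB libraries, replicate 2 included. All 6 tested genes were higher, 5 were separate, and the median difference was 0.95. Under the limit were 4 further genes, H2-DMb2, H2-Oa, H2-Ob and Ciita. Their summed FPKM overlapped, at 0.616, 1.78 and 1.58 against 0.898, 1.66 and 2.77. With no filter the median was 0.77. Cd74, the invariant chain, was at 17.8, 66.8 and 55.9 FPKM under IgG and at 93.6, 82.6 and 120 under ICB (1.24 ± 0.46). H2-Aa was at 3.90, 11.7 and 11.9 against 17.1, 16.1 and 23.1 (1.07 ± 0.38), and the peptide-loading gene H2-DMa at 2.66, 4.79 and 3.46 against 8.12, 5.01 and 8.61 (0.83 ± 0.25). IgG replicate 1 was the lowest library in each of these, and without it the median of the list was 0.62. H2-Ab1 (9.11, 26.7 and 24.4 against 26, 31.9 and 39) overlapped between the groups.

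Interferon-responsive genes were lowest as a group in IgG replicate 1. In the type I interferon list 24 of 31 tested genes were higher, with a median of 0.18 and none separate, and without IgG replicate 1 the median was -0.21. Ifit3 was at 2.94, 20.6 and 12.2 against 8.52, 11.8 and 26.5 (0.52 ± 0.63). Of 23 tested genes of the interferon-gamma response 18 were higher, with a median of 0.29 (0.12 without IgG replicate 1). Gbp2, a guanylate-binding protein, was separate at 1.66, 3.01 and 2.16 against 3.50, 4.60 and 4.85 (0.71 ± 0.21), as was the serpin Serpina3g (3.07 to 5.76 against 6.77 to 15.5). Cxcl9 and Cxcl10, chemokines that attract activated T cells, were at 0.504 to 3.17 against 1.92 to 5.59 and at 0.253 to 1.24 against 1.05 to 1.84, both overlapping.

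Among chemokines and cytokines 17 of 21 tested genes were higher, the median was 0.41 (0.24 to 0.53 with 1 library left out) and 5 were separate. Cxcl16, made by macrophages and endothelium, was at 2.23, 4.11 and 3 against 11.9, 4.15 and 12.1 (1.24 ± 0.38). Il18 was at 6.72, 14.4 and 13.7 against 20.8, 17.1 and 28 (0.90 ± 0.30), and Tgfb1 at 2.98, 5.01 and 3.79 against 8.20, 5.12 and 9.30 (0.78 ± 0.25). In Cxcl16 and Tgfb1 the ICB replicate 2 value was within a small margin of the highest IgG value. Cxcl13, which attracts B cells, and Ccl6, a myeloid chemokine, were split within the ICB group: Cxcl13 was at 16.9, 4.10 and 2.94 against 89.7, 1.20 and 133, so that ICB replicate 2 was the lowest of all 6 libraries, and Ccl6 was at 25.7, 25.1 and 15.6 against 128, 21 and 133.

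Lymphocyte markers were too low for most tests. Only 4 of 25 T cell genes in the table were tested. Trbc2, a constant region of the T cell receptor beta chain, was separate at 0.549, 0.541 and 0.357 FPKM against 2.75, 1.29 and 2.89 (1.12 ± 0.23), but on 3 to 5 reads per IgG library and 11 to 27 per ICB library. As in Ighg1, every IgG value was under 1, so the filter fixed this separation. The near-identical Trbc1 was at 0.380, 1.10 and 0.330 against 0.484, 1.09 and 1.38, and reads could be divided between both genes. Among the 21 T cell genes under the limit was Cd3d, at 0.0523, 0.165 and 0.0908 against 0.649, 0.404 and 0.938. It rested on 1 to 4 reads per IgG library and 9 to 23 per ICB library. The other defining T cell markers overlapped. Cd3e was at 0.163, 0.0918 and 0.162 against 0.156, 0.0599 and 0.199, and Cd3g at 0.116, 0.183 and 0.378 against 0.166, 0.199 and 0.43. Trac was at 0.406, 1.28 and 0.441 against 0.485, 0.174 and 1.58. The summed FPKM of the 21 genes was 2.89 to 5.43 under IgG and 5.26, 4.63 and 9.83 under ICB. Igkc, the kappa light chain of antibodies, was at 6.60, 9.15 and 14.1 against 32.2, 17 and 39.9 (1.46 ± 0.36), separate like Ighg1, while Ighm (1.61, 2.94 and 2.14 against 2.64, 1.86 and 5.61) and Cd79a (0.261 to 0.679 against 0.615 to 1.68) overlapped. Of the NK and cytotoxic genes, 4 of 19 were tested and Il2rb alone was separate (0.921 to 1.27 against 1.46 to 2.34). The neutrophil genes S100a8 and S100a9 were at 4.87 to 12.2 and 9.63 to 16.9 under IgG and were lowest of all in ICB replicate 2, at 3.40 and 3.90, and highest in ICB replicate 3, at 15.8 and 30.5. The target genes of the antibodies, Pdcd1 and Ctla4, were among 13 checkpoint genes under the limit. Of the 8 tested checkpoint genes 4 were higher and 4 lower, with a median of 0.02 and none separate. The widest difference was that of the ligand gene Cd274, which was at 0.472, 1.53 and 1.07 against 2.33, 1.48 and 2.90 (0.69 ± 0.26).

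Red blood cell transcripts, a measure of blood left in the tissue, varied within both groups. Hbb-bs was at 310, 291 and 58.8 FPKM in IgG replicates 1 to 3 and at 193, 72.1 and 280 in ICB replicates 1 to 3. IgG replicate 3 and ICB replicate 2, the most similar pair of libraries, were the lowest in that gene and in the mean of the erythroid list (3.69 and 3.94 against 4.69 to 5.36). Alas2, the heme synthesis enzyme of red cell precursors, was instead highest in ICB replicate 2, at 45.1 against 18.1 to 32 in the other 5 libraries. The part of blood content in the macrophage and leukocyte differences was not tested.

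Sinusoidal endothelial genes were mostly higher under ICB. Of 29 tested genes 26 were higher, with a median of 0.27 (0.18 to 0.41 with 1 library left out), and 4 were separate. ICB replicate 2 was above all IgG libraries in 11 of the 29, ICB replicate 1 in 12 and ICB replicate 3 in 19. Over all 11257 genes these counts were 2572, 3292 and 2483. List means were 3.12, 3.19 and 3.39 in the IgG libraries and 3.39, 3.39 and 3.70 in the ICB libraries. ICB replicates 1 and 2 were thus level with IgG replicate 3. The water channel gene Aqp1 was at 39.5, 58.3 and 73.2 against 84, 75 and 101 (0.63 ± 0.25), and Tie1, an endothelial receptor, at 4.64, 4.39 and 6.23 against 6.33, 7.27 and 8.62 (0.47 ± 0.19). The scavenger receptor Stab2 (9.81 to 13.4 against 12.5 to 17.2) and the lectin Clec4g (24.6 to 50.1 against 37.8 to 54.7) overlapped. Stellate cell and matrix genes gave 16 higher and 12 lower of 28, with a median of 0.07 (-0.06 to 0.15 with 1 library left out). The retinol-storing enzyme gene Lrat was at 5.19 to 7.97 against 4.13 to 7.31. Cholangiocyte genes gave 1 higher of 6 (median -0.11, -0.18 to -0.01 with 1 library left out), with Krt19 at 0.870, 2.50 and 1.51 against 1.03, 1.36 and 0.399.

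**Figure D4:**
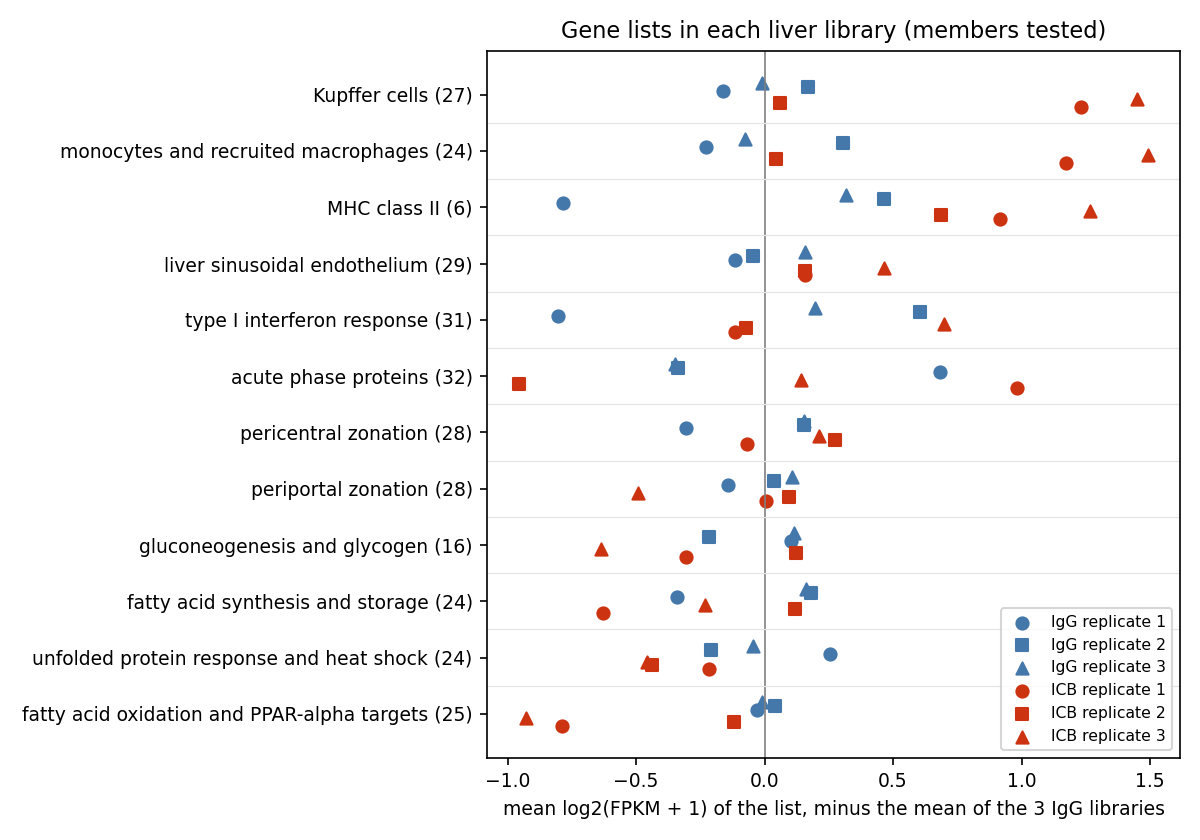
Mean log2(FPKM + 1) of 12 gene lists in each library, minus the mean of the 3 IgG libraries, with the number of members tested in brackets, IgG in blue and ICB in red. For the Kupffer cell list ICB replicates 1 and 3 lie above all other libraries and ICB replicate 2 among the IgG libraries, while the unfolded protein response and PPAR-alpha lists lie below the IgG libraries in all 3 ICB libraries.

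Fatty acid oxidation genes and other PPAR-alpha targets were lower under ICB in these bulk liver libraries. All 25 tested members had a negative difference, with a median of -0.39, and 7 were separate and lower. List means were 6.46, 6.53 and 6.48 in the IgG libraries and 5.70, 6.37 and 5.56 in the ICB libraries, so that ICB replicate 2 lay below the IgG libraries by the smallest margin. It was below all IgG libraries in 10 of the 25 genes, against 16 in ICB replicate 1 and 19 in ICB replicate 3. The widest differences were in the omega-hydroxylases of microsomal fatty acid oxidation. Cyp4a14 (chr4:115486200-115496142, minus strand) was at 461, 1186 and 395 FPKM in the IgG libraries and at 82.3 and 23.2 in ICB replicates 1 and 3, with ICB replicate 2 between them and the lowest IgG library (-2.76 ± 0.89), and Cyp4a10 (chr4:115518264-115533649, plus strand) was at 335, 613 and 295 against 58.5, 271 and 31 (-2.29 ± 0.72). In both, every ICB library was below every IgG library, but ICB replicate 2 was within a short distance of IgG replicate 3. The Cyp4a genes resemble each other in sequence, and how the authors assigned reads shared between them is not stated in the labels.

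Vnn1, pantetheinase, a hepatocyte gene under PPAR-alpha control (chr10:23894688-23905343, plus strand), was at 18.7, 22.6 and 17.3 against 4.58, 9.74 and 4.20 (-1.59 ± 0.29). It had the smallest p among the lower genes and, with Cyp4a10, was one of the 2 lower genes that passed without ICB replicate 2 (limma, adjusted p = 0.021). Acot3, a peroxisomal acyl-CoA thioesterase, was at 3.03, 4.95 and 5.73 against 2.09, 1.22 and 2.16 (-0.96 ± 0.24), and there ICB replicate 2 was the lowest library. In the mitochondrial pathway Hadha and Hadhb, the subunits of the trifunctional protein, were separate at 60.8 to 77.3 against 42.3 to 59.1 and at 27.3 to 37.3 against 20.5 to 26.8. In the peroxisomal pathway Ehhadh was at 109, 131 and 91.2 against 49.6, 111 and 51.8 (-0.72 ± 0.33). There ICB replicate 2 was inside the IgG range and ICB replicates 1 and 3 were below it. The receptor gene Ppara was at 26.3, 21.3 and 50.1 against 10.3, 55 and 20.3 (-0.40 ± 0.56), and Cpt1a, the gate of fatty acids into mitochondria, at 189, 94.6 and 126 against 100, 145 and 110 (-0.16 ± 0.29).

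**Figure D5:**
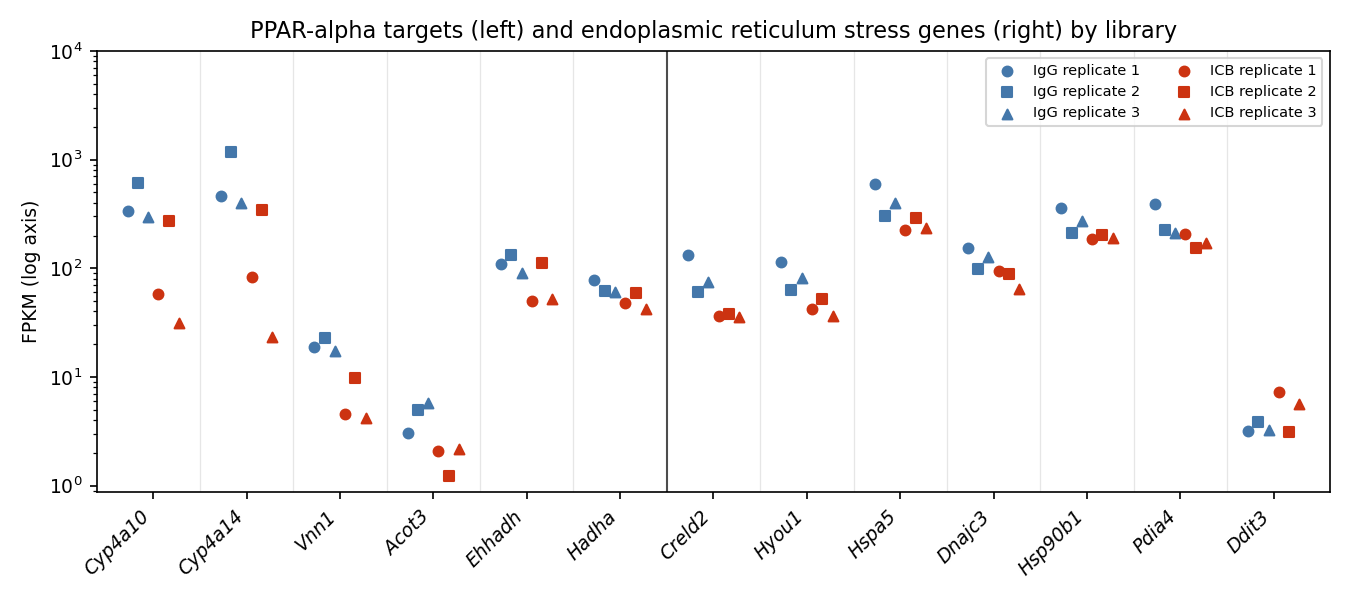
FPKM on a log axis of 6 PPAR-alpha targets (left) and 7 endoplasmic reticulum stress genes (right), with one symbol per library, IgG in blue and ICB in red. Cyp4a10 and Cyp4a14 are lowest in ICB replicates 1 and 3, while Creld2 lies at 35.5 to 37.6 in all 3 ICB libraries against 60.8 to 131 in the IgG libraries.

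Chaperones of the endoplasmic reticulum were lower in all 3 ICB libraries, and here ICB replicate 2 was with its group. Of 24 tested genes of the unfolded protein response and heat shock list, 20 were lower and 4 higher, the median was -0.38, and 9 were separate and lower. List means were 6.17, 5.71 and 5.87 under IgG and 5.70, 5.48 and 5.46 under ICB. The ICB replicate 1 mean was barely below that of IgG replicate 2. ICB replicate 2 was below all IgG libraries in 17 of the 24 genes, ICB replicate 3 in 15 and ICB replicate 1 in 10. Without IgG replicate 1, which had the highest list mean, the median was -0.32.

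Part of this response acts through the endoplasmic reticulum stress response element, CCAAT followed after 9 bases by CCACG, which the factors NF-Y and ATF6 bind. In windows of 300 bases that reach from 250 bases before to 50 bases after the gene start (RefSeq, build GRCm38.p6), the element was found on either strand in 6 of the 20 genes of the list that have such a window (30%), and in 15 of 8441 genes tested in liver with one (0.178%). Over all 32851 windows the share was 0.119%. The list was drawn up around the response that uses this element, so its higher share follows from that choice. It does not depend on the liver values. Windows are shown for the 4 genes of the list that hold the element and were separate between the groups, because they carry both observations. The 2 boxes of each match are in capitals, on the strand of the gene. They lie at chr15:88819396-88819695 (Creld2, plus strand), chr2:34771840-34772139 (Hspa5, plus strand), chr14:118937682-118937981 (Dnajc3, plus strand) and chr10:86705395-86705694 (Hsp90b1, minus strand).
Creld2: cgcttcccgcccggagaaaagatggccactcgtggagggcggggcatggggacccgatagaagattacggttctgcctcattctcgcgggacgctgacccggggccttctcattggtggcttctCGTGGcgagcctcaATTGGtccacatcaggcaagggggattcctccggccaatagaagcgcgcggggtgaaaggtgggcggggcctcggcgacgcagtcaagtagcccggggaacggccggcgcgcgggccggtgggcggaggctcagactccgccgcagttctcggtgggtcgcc
Hspa5: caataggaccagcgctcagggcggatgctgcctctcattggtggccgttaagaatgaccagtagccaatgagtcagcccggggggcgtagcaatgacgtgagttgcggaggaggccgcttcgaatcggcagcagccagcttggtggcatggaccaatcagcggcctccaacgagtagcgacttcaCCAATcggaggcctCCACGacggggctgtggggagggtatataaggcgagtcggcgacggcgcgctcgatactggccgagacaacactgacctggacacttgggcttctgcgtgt
Dnajc3: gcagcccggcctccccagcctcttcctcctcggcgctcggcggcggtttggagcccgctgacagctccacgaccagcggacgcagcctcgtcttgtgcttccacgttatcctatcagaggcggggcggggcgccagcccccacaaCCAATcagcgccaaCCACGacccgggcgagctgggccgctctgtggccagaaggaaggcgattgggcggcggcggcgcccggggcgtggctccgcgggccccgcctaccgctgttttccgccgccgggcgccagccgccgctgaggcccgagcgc
Hsp90b1: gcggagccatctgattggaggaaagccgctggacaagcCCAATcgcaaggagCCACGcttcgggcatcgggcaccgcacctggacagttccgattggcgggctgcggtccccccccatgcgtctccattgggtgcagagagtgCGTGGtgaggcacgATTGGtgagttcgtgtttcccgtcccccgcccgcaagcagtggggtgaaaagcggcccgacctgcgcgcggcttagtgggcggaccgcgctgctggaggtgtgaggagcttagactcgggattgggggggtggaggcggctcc
The match begins 126 bases before the gene start in Creld2, 65 in Hspa5, 105 in Dnajc3 and, for the first of the 2 matches, 212 in Hsp90b1. In Creld2, and in the second match of Hsp90b1, the boxes stand on the opposite strand and read CGTGG and ATTGG. A match describes these letters and is not evidence that a factor binds there.

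Creld2, a secreted protein of the reticulum induced by stress (gene at chr15:88819646-88826683, plus strand), was at 131, 60.8 and 74.5 FPKM in the IgG libraries and at 36, 37.6 and 35.5 in the ICB libraries (-1.19 ± 0.28). The ICB libraries were close to one another, and the spread was in the IgG group. Hyou1, a large chaperone of the reticulum (chr9:44379490-44392369, plus strand), was at 114, 63.1 and 80.9 against 42.2, 52.3 and 36.6 (-0.93 ± 0.25). Hspa5, the master chaperone BiP, was at 594, 301 and 400 against 225, 288 and 233 (-0.74 ± 0.28), and the co-chaperone Dnajc3 at 154, 98.6 and 126 against 94.3, 89.2 and 64.2 (-0.61 ± 0.24). Hsp90b1 was at 359, 210 and 274 against 184, 204 and 190 (-0.51 ± 0.24). These 5 genes were separate, with the lowest IgG library, replicate 2, near the highest ICB library in Hspa5, Dnajc3 and Hsp90b1. The other 2 genes of the list with the element, Pdia6 (-0.41 ± 0.23) and Calr (-0.36 ± 0.32), overlapped. Of the 9 tested genes outside the list with the element, 8 had a negative difference, as had 6123 of all 11257 genes. The median of the 9 was -0.27, and 1, the lectin chaperone Canx (-0.35 ± 0.18), was separate. With a chaperone among them, the 9 are not independent of the list. The range reached from -1.63 in Derl3, a factor of protein disposal at 71.3, 19.9 and 6.17 against 36.4, 3.41 and 1.22, to 0.04 in Pan2. The Alg12 window was among the 9, and Alg12 lies head to head with Creld2.

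Genes of the ATF4 and CHOP branch of the stress response, which governs amino acid supply and cell death, overlapped between the groups. Ddit3, the factor CHOP, was at 3.16, 3.85 and 3.22 against 7.25, 3.14 and 5.57 (0.47 ± 0.26), Atf4 had a difference of -0.19, Asns of 0.11 and Chac1 of 0.14. Cytosolic heat shock genes were mixed, with Hsph1 separate and lower (8.23 to 14.9 against 6.12 to 7.99, -0.58 ± 0.22), Hsp90aa1 likewise (56.6 to 88.3 against 45.4 to 50.9) and Hspa1b at 0.01.

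A list of the machinery that brings proteins into the reticulum and carries them to the Golgi was drawn up after these values were seen. It describes the values and is no separate support for those of the chaperones. Of 68 tested genes, 65 were lower and 3 higher, with a median of -0.27 and 15 separate and lower. Without ICB replicate 2, 13 were higher (median -0.23), and without IgG replicate 1, 10 were higher (median -0.20). With both left out the median was -0.14. Lrrc59, a ribosome-binding protein of the reticulum, was at 102, 73.8 and 77.3 against 45.2, 55.9 and 58.8 (-0.64 ± 0.20). Preb, which starts COPII coats, was at 26.2, 24.2 and 23.4 against 16.5, 18.6 and 16.9 (-0.48 ± 0.15), and Sec61a1, the channel subunit, at 50.7, 37.4 and 40.4 against 26.4, 33.9 and 30 (-0.49 ± 0.19). In all 3 genes, as in 44 of the 68 for ICB replicate 2, 42 for ICB replicate 3 and 33 for ICB replicate 1, the ICB value was below every IgG library.

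Acute phase proteins, which hepatocytes secrete in inflammation, varied more within the groups than between them. Saa2, serum amyloid A, was at 18004, 2208 and 1619 FPKM in IgG replicates 1 to 3 and at 25987, 434 and 6300 in ICB replicates 1 to 3 (0.05 ± 1.49). Saa1 was at 12501, 2693 and 2168 against 17361, 946 and 4923, and Lcn2, lipocalin 2, at 2394, 384 and 249 against 2768, 89.5 and 661. IgG replicate 1 and ICB replicate 1 were high, and ICB replicate 2 was the lowest library in all 3 genes and below all IgG libraries in 24 of the 32 tested acute phase genes. The median of the list was -0.08 over all 6 libraries, 0.33 without ICB replicate 2 and 0.29 without IgG replicate 1, so its sign depended on 1 library. Glucocorticoid-responsive genes had the highest list mean in IgG replicate 1 (6.48 against 4.85 to 6.11 in the other 5 libraries), with Cdkn1a at 30.6 in that library and at 1.31 to 7.95 elsewhere.

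The medians of both zonation lists depended on which library was left out. Of 28 pericentral genes 20 were higher and 8 lower, with a median of 0.09 that became -0.01 without ICB replicate 2 and 0.24 without ICB replicate 1. Glul, glutamine synthetase of the innermost pericentral hepatocytes, was at 689, 796 and 854 against 780, 771 and 650 (-0.09 ± 0.22), and Cyp2e1 at 4768, 3176 and 3734 against 4637, 4143 and 3212 (0.04 ± 0.31). Gulo, the enzyme of vitamin C synthesis, was separate and higher (171 to 334 against 368 to 421), and the tight junction gene Cldn2 separate and lower (45.1 to 51 against 37.4 to 43.9). Of 28 periportal genes 8 were higher and 20 lower, with a median of -0.08 that became -0.26 without ICB replicate 2, -0.22 without IgG replicate 1 and 0.06 without ICB replicate 3. Cyp2f2 was at 209, 727 and 763 against 374, 698 and 418 (-0.03 ± 0.52), and Arg1, arginase, at 2865, 1616 and 1824 against 2333, 1857 and 1754 (-0.05 ± 0.31). Among further zonated genes, Cyp1a2 was at 85.5, 600 and 532 against 242, 636 and 507, Oat, ornithine aminotransferase, at 435, 472 and 687 against 597, 650 and 589, and the Wnt target Axin2 at 2.66, 2.9 and 1.66 against 1.86, 4.04 and 3.1. On the periportal side Hal, histidase, was at 97.1, 207 and 221 against 127, 227 and 89.1, Sds, serine dehydratase, at 174, 156 and 184 against 258, 225 and 155, and Hsd17b13 at 132, 212 and 171 against 128, 156 and 138. In none of these 6 genes were the groups separate. ICB replicate 3 had the lowest periportal mean, 7.80 against 8.15 to 8.40 in the other 5 libraries.

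Genes of glucose and fatty acid synthesis were mostly lower, by amounts that depended on single libraries. Of 16 gluconeogenesis and glycogen genes 14 were lower (median -0.22, none separate, -0.49 without ICB replicate 2 and -0.07 without ICB replicate 3): G6pc, glucose-6-phosphatase, was at 122, 79.9 and 80.8 against 93.9, 89.7 and 14.8, with ICB replicate 3 alone far below, and pyruvate carboxylase Pcx at 307, 223 and 278 against 157, 284 and 163. Of 24 fatty acid synthesis and storage genes 21 were lower (median -0.28, -0.48 without IgG replicate 1 and -0.12 without ICB replicate 1), including Fasn, fatty acid synthase, at 64.5, 114 and 127 against 47.8, 69.5 and 96.1 (-0.51 ± 0.33), which overlapped. The fatty acid transporter Cd36 was the 1 separate gene of that list and was higher (14.9 to 19.9 against 21 to 24.8). Cholesterol synthesis genes had a median of -0.08 (-0.15 to 0.01 with 1 library left out) and bile acid genes one of -0.09 (-0.19 to -0.03 with 1 library left out), with Cyp7a1 at 167, 65.9 and 48 against 99.9, 31 and 133. The groups overlapped in that gene. Cytochrome P450 genes (median -0.05), urea cycle and amino acid genes (0.01), phase II genes (0.01), respiratory chain genes (0.01) and hepatocyte identity genes (-0.03) had medians within 0.05 of the median of all genes over all 6 libraries. Without IgG replicate 1 the P450 median was -0.32, with 25 of 30 genes lower, and the phase II median was -0.24, with 23 of 30 lower. The sign of the hepatocyte identity, urea cycle and respiratory chain medians differed between scalings of the same values.

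Genes that define hepatocytes overlapped, with Ttr, transthyretin, at 3970, 7040 and 6401 against 6779, 5707 and 5223 and the transcription factor Hnf4a at 249, 219 and 270 against 226, 275 and 246. Pck1, the entry enzyme of gluconeogenesis, was at 2258, 668 and 1809 against 1910, 1453 and 567. Further lists are given by their counts and medians, with the range of the median when each library was left out in turn. Complement and coagulation genes were 15 higher and 19 lower of 34 (median -0.07, range -0.18 to 0.02), apolipoprotein genes 13 higher and 11 lower of 24 (median 0.02, range -0.08 to 0.12) and circadian clock genes 7 higher and 12 lower of 19 (median -0.17, range -0.25 to 0.05). Growth factor and hormone signal genes were 4 higher and 19 lower of 23 (median -0.20, range -0.29 to -0.10), immediate early genes 15 higher and 2 lower of 17 (median 0.31, range 0.13 to 0.30), and dendritic cell genes 5 higher and 0 lower of 5 (median 0.58, range 0.33 to 0.75). Another 11 dendritic cell genes were under the limit, with a summed FPKM of 2.54, 3.52 and 3.83 against 3.33, 5.67 and 4.58. With no filter the dendritic cell median was 0.12. Genes of MHC class I and peptide loading were 16 higher and 4 lower of 20 (median 0.17, range -0.05 to 0.39). Without IgG replicate 1 the MHC class I list had 8 higher and 12 lower. Cell cycle genes were 11 higher and 1 lower of 12 (median 0.38, range -0.03 to 0.64), and the list mean was highest in ICB replicate 3, at 3.08 against 1.80 to 1.99 in the other 5 libraries. Male-biased liver genes were 15 higher and 7 lower of 22 (median 0.10, range -0.11 to 0.41). The sign of the median turned without ICB replicate 3 in the cell cycle and clock lists, without IgG replicate 3 in the clock and complement lists, without ICB replicate 1 in the apolipoprotein list and without ICB replicate 2 in the male-biased list.

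The difference in liver was also set against the mean difference in kidney, lung, muscle and heart, over 30 libraries. In limma 0 of 10828 genes (0%) passed, with 829 at an unadjusted p under 0.05 and a smallest adjusted p of 0.0761, that of Smpd3, a sphingomyelinase. Smpd3 was at 7.84, 5.90 and 5.21 FPKM in liver under IgG and at 3.38, 3.72 and 2.14 under ICB, a difference of -0.85 against a mean of 0.11 in the other organs. Lpl had 1.57 in liver and -0.08 in the other organs (difference 1.65 ± 0.35, limma, adjusted p = 0.238), and the Kupffer cell gene Fabp7 had 1.19 and -0.21 (1.40 ± 0.31, adjusted p = 0.263). The macrophage gene Adgre1 (1.06 in liver, 0.43 ± 0.34 above the other organs, adjusted p = 0.744) and Cd74 (0.44 ± 0.44 above them, adjusted p = 0.777) also had positive mean differences in the other organs, of 0.63 and 0.80. With the title number as a replicate block Smpd3 passed (limma, adjusted p = 0.0272), and it also passed without IgG replicate 3, as Acot3 did without IgG replicate 1. Without ICB replicate 2, 363 genes passed.

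ICB replicate 2 of liver shares the number in its title with ICB libraries of heart, kidney, muscle and tumor, though the labels do not say what the number stands for. In kidney and muscle that library had the lowest mean of the Kupffer cell list among the ICB libraries (1.55 against 1.92 and 2.02 in kidney, 2.28 against 2.80 and 2.80 in muscle). It was also lowest in tumor (2.09 against 2.49 and 2.42) and heart (2.35 against 2.49 and 2.65). IgG means were 1.56 to 1.64 in kidney, 1.95 to 2.57 in muscle, 2.09 to 2.42 in tumor and 2.32 to 2.55 in heart. The mean of the monocyte and macrophage list was likewise lowest in the library with that number among the ICB libraries of each of these tissues. Whether the libraries with that number share a cause was not tested.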

How the data were processed

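Bulk RNA from liver was analysed in 3 ICB and 3 IgG libraries. FPKM values were deposited by the authors as 1 table for all 36 libraries. The submitters' processing notes name HISAT2 2.1.0, edgeR and the build mm10; their roles, the counting tool and its strand setting are not stated there. Of 18781 rows, 15 without a name and those of 3 symbols on 2 rows were left out, which left 18760, and 0 sample columns were unused. FPKM values were whole multiples of 1 read in 100% of rows (tolerance 0.001 reads), so reads were recovered from the deposited FPKM values. They served for depth and for limma-voom as an alternative, which passed 0 genes. The recovered reads also implied a further normalization factor per library, from 0.5318 to 0.6451 in liver and from 1.4468 to 1.5955 in lung. How these factors were computed is not stated. They bear on the limit of 1 FPKM and on levels compared between tissues.

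Genes whose FPKM reached 1 or more in 3 or more of the 6 were tested on log2(FPKM + 1) with limma 3.58.1 (moderated, with a mean-variance trend, R 4.3.3) and Benjamini-Hochberg adjustment over all 11257, at a threshold of 0.05. The fold changes understate differences of low genes. The script was tested on simulated data. The liver effect was compared with the mean effect in 4 organs in 1 model over 30 libraries. Gene coordinates come from GENCODE M21 and promoters from RefSeq GRCm38.p6.

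The members, the 44 gene lists and the tests were chosen with earlier results of these data known, and 1 further list was added after these values were seen. Named genes were the 10 smallest p-values each way without predicted genes, leading members of the lists by p, and fixed anchor genes, of which some are not reported here; other members and the genes passing without ICB replicate 2 were picked as examples after their values were seen. Alternatives changed the pseudocount, filter, scaling, trend, array weights, the libraries fitted and each replicate left out.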

Additional observations from a re-analysis of the deposited data

How the results depend on the processing

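The Kupffer cell, monocyte and macrophage, MHC class II, fatty acid oxidation and unfolded protein response medians kept their sign in 17 of 17 alternative settings. Their ranges were 0.62 to 1.36, 0.67 to 1.54, 0.62 to 1.23, -0.73 to -0.29 and -0.51 to -0.27. Fitting with no trend, or with all 36 libraries, changes only the estimate of the spread, so these settings could not move a median. The lowest fatty acid oxidation median, -0.73, came from 2 against 2 libraries without ICB replicate 2 and IgG replicate 1, and the highest macrophage median, 1.54, from limma-voom without ICB replicate 2. The count of passing genes in liver was 0 with all 6 libraries and 0 to 42 with 1 library left out (42 without ICB replicate 2, and 1, Moxd1, without IgG replicate 1). It was 1 with no filter (Mir1943), 74 when all 36 libraries shared 1 estimate of the spread (49 higher, 25 lower), 50 with 2 against 2 libraries and 55 in limma-voom without ICB replicate 2. Of the 55, 36 were among the 42. Array weights gave 0, with 2234 at an unadjusted p under 0.05. Against the other organs, 0 to 363 genes passed with 1 library left out: 363 without ICB replicate 2 (182 higher, 181 lower), 3 without IgG replicate 1 and 2 without IgG replicate 3. A pseudocount of 0.1 gave 2 genes (Gpr137b and Gmpr), and the TPM scale moved the median of all genes to -0.11, with 34.4% higher in place of 49.5%. With the title number as a replicate block (correlation 0.1765) 1 gene passed, Smpd3. No paired analysis was possible for liver alone because its ICB and IgG titles share no number. Of 1003 alternatives for 59 named genes, 946 kept direction and side of the threshold, 42 passed newly, 13 moved and 2 reversed: Sds to -0.04 with array weights, and Cxcl9 to -0.00 with 2 against 2 libraries. Of 731 alternatives for 43 list medians, counting those that could not move one, 684 stayed within the replicate spread. The cause of these shifts was not tested. The 2-against-2 and limma-voom settings were chosen after seeing the data. At 3 to 14 reads per IgG library, Trbc2 and Ighg1 are limited by depth.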
